A study of Homo sapiens with 27 samples.

Results

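A set of 10 genes of glucose uptake and glycolysis was followed through 5 states of IMR90 cells, a line of human fetal lung fibroblasts. They were taken by name, not by their values: the glucose transporter gene SLC2A1, and HK2, PFKP, PFKFB3, ALDOA, GAPDH, PGK1, ENO1, PKM and LDHA, which encode glycolytic enzymes or, for PFKFB3, a regulator of the pathway. In the deposited files and RefSeq on build GRCh38.p14 they are SLC2A1 (ENSG00000117394, chr1:42925353-42958868), HK2 (ENSG00000159399, chr2:74834127-74893359), PFKP (ENSG00000067057, chr10:3067548-3136805), PFKFB3 (ENSG00000170525, chr10:6144921-6326637), ALDOA (ENSG00000149925, chr16:30064279-30070420), GAPDH (ENSG00000111640, chr12:6534517-6538371), PGK1 (ENSG00000102144, chrX:78104248-78129295), ENO1 (ENSG00000074800, chr1:8861000-8878686), PKM (ENSG00000067225, chr15:72199029-72231591) and LDHA (ENSG00000134333, chr11:18394563-18408425). All 10 were found among the 60534 gene identifiers that every library listed, and all 10 passed the filter on low counts in RNA-seq and in ribosome profiling (Ribo-seq). Ribo-seq reads the pieces of mRNA that sat inside ribosomes during an RNase digestion, called footprints here, so a footprint count depends on both the amount of an mRNA and the ribosomes on it.

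Every group was of wild-type IMR90 cells in high-glucose medium with 10% serum. Cycling cells, at 40 to 60% confluency, gave 2 RNA-seq and 3 Ribo-seq libraries. Quiescent cells were held by contact inhibition, irradiated senescent cells received 15 Gy of ionizing radiation and were collected 10 days later, and etoposide senescent cells received 50 µM of this topoisomerase II inhibitor in 3 treatments over 10 days. These 3 states each gave 3 libraries of either type. Cycling cells given 25 nM thapsigargin for 3 h, an inhibitor of the calcium pump of the endoplasmic reticulum that sets off the stress response of that organelle, gave 2 of either type. The study addressed translation and the integrated stress response in senescent cells. Nothing in the labels says that replicates were separate cultures, so the p-values measure the spread between these libraries, which may be technical.

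Glycolysis turns glucose into pyruvate in the cytosol. SLC2A1 protein carries glucose across the plasma membrane, and HK2 is a hexokinase that traps it by phosphorylation. PFKP is a subunit of phosphofructokinase, the main control point, and PFKFB3 makes fructose-2,6-bisphosphate, which activates that enzyme. ALDOA is the aldolase that splits the sugar, and GAPDH, PGK1, ENO1 and PKM act in the later steps, of which those of PGK1 and PKM yield ATP. LDHA turns pyruvate into lactate and restores the NAD+ that GAPDH uses. Several of these genes are textbook targets of hypoxia-inducible factors, which bind DNA at a short core, and of MYC, which binds the E-box. Senescent fibroblasts are known to be metabolically active although they no longer divide.

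The DNA just before an annotated start of 7 members is shown first, since genes of 1 pathway took several directions in the results below. These 7 were chosen after their values were seen. Sequences are the 250 bases before a transcription start in RefSeq on build GRCh38.p14, read 5′ to 3′ along the gene's own strand. The only windows matched for GAPDH and PKM lie inside the gene spans given above, before a start within the gene. Capitals mark ACGTG and GCGTG, the hypoxia-response core, on either strand (so their reverse complements are marked too); for HK2 and LDHA the first listed start is shown. The first set holds 4 of the 6 members with higher footprint counts in both senescent states.
HK2, chr2:74833877-74834126, plus strand: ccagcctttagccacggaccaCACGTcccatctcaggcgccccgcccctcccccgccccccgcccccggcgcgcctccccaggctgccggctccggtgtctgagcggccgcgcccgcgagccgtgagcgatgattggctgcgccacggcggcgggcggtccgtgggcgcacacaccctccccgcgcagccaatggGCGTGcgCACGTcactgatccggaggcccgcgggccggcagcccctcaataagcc
GAPDH, chr12:6535014-6535263, plus strand: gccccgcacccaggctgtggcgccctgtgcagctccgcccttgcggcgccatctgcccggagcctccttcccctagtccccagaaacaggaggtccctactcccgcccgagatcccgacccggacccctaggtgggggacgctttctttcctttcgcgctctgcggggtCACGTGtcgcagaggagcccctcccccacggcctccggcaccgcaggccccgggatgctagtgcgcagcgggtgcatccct
PGK1, chrX:78103998-78104247, plus strand: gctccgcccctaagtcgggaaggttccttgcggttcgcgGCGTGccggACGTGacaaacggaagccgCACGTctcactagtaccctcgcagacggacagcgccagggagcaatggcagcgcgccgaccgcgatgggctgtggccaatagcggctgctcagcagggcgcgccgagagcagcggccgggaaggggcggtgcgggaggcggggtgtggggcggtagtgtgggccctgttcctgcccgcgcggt
PKM, chr15:72231191-72231440, minus strand: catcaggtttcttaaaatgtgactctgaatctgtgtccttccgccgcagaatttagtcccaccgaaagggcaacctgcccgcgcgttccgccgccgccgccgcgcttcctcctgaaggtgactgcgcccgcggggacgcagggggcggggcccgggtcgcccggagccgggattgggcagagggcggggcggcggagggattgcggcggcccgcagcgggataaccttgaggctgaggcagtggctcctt
The second set holds SLC2A1, lower in quiescent and irradiated cells, and ENO1 and LDHA, which were lower in quiescent cells and in both senescent states.
SLC2A1, chr1:42958869-42959118, minus strand: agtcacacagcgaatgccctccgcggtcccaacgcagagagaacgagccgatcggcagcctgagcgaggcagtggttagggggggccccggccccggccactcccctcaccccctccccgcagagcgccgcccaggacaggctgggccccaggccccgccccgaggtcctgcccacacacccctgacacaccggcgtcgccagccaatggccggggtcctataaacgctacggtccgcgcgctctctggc
ENO1, chr1:8878687-8878936, minus strand: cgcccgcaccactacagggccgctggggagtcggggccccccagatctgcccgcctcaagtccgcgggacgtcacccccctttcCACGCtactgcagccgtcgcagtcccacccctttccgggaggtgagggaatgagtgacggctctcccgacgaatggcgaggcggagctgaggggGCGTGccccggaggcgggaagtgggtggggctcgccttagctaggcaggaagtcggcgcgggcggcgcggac
LDHA, chr11:18394313-18394562, plus strand: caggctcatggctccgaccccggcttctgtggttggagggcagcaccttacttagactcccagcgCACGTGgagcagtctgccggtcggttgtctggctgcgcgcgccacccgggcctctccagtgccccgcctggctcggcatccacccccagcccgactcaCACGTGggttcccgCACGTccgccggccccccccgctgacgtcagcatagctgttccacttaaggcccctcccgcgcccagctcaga

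RefSeq windows were matched for all 10 members, 18 windows in all because several genes have more than 1 start. Of these 18 windows, 14 held at least 1 of the marked cores on either strand, against 43.21% of all 35116 such windows. The windows of 1 gene are not independent of each other, and 2 of those of ALDOA overlap. The core was present in the window of GAPDH, which rose in senescent footprints, and in that of ENO1, which fell. The windows of SLC2A1 and PKM held neither core, and those of PKM and GAPDH lie inside their genes. CACGTG, the E-box, contains the first of these cores and lay in 5 of the 18 windows, including those of GAPDH and LDHA, against 6.34% of all windows. Each CACGTG holds that core on both strands and so counts as 2 matches. LDHA had 5 matches to that core in the window shown, with CACGTG at 2 places, and PGK1 had 2 with no CACGTG. A match is a run of letters and not a bound site, and the absence of one says only that the letters are not in that window.

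In RNA, the members did not move as a block in any state. An edgeR quasi-likelihood fit over 13293 protein-coding genes, with Benjamini-Hochberg adjustment over all of them, was used, and a gene was called at an adjusted p below 0.05. Against cycling cells, quiescent cells had 0 members called higher and 3 lower (SLC2A1, ENO1, LDHA), where 15.6% of all genes tested were called. At an unadjusted p under 0.05, 1 member was higher in quiescent RNA (ALDOA), a threshold at which the share of all genes was not counted. DESeq2 called 4 members in all in quiescent RNA, beside 2617 genes over its whole fit. Irradiated cells had 3 higher (HK2, PFKFB3, PGK1) and 4 lower (SLC2A1, PFKP, ENO1, LDHA), beside 34.9% of all genes. Etoposide cells had 2 higher (HK2, PGK1) and 2 lower (PFKP, ENO1), beside 34.6%. Thapsigargin cells had 2 higher (HK2, PFKFB3) and 1 lower (LDHA), beside 24.5%. The RNA calls leaned on few libraries: with any 1 library left out in turn, 2 to 5 members were called in irradiated cells, 2 to 5 in etoposide cells, 0 to 3 in quiescent cells and 1 to 3 in thapsigargin cells.

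In footprints, more members were called, and both senescent states had the same number in each direction. Of the 10 members, 6 were higher and 3 lower in irradiated cells, where 40.5% of the 11766 genes tested were called. In etoposide cells 6 were higher and 3 lower, beside 33.9%. HK2, PFKFB3, ALDOA, GAPDH, PGK1 and PKM were higher in both, and ENO1 and LDHA were lower in both. SLC2A1 was lower in irradiated cells, and PFKP was lower in etoposide cells. Quiescent cells had 2 higher (HK2, PFKFB3) and 3 lower (SLC2A1, ENO1, LDHA), beside 22.4%. Thapsigargin cells had 3 higher (HK2, PFKFB3, PKM) and 3 lower (GAPDH, PGK1, LDHA), beside 44.6%. These comparisons share the cycling libraries, so their values stand side by side and not as independent results.

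**Figure D1:**
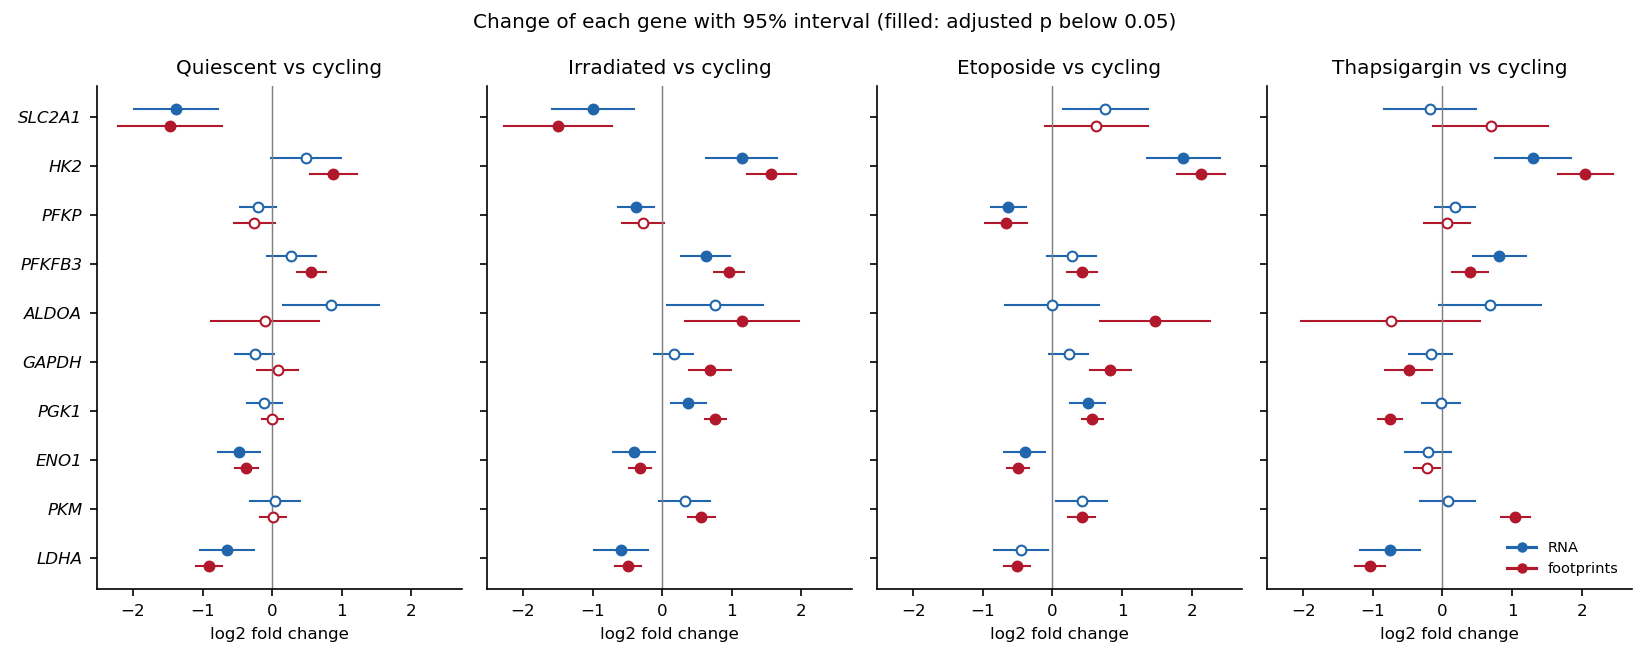
Log2 fold change of the 10 genes against cycling cells in each of the other states (x axis), for RNA in blue and footprints in red, with 95% intervals. Filled points passed the adjusted threshold. HK2 lay to the right of zero in all panels and LDHA to the left, while SLC2A1 changed side between irradiated and etoposide cells.

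The state comparisons that leave out cycling cells placed most members higher in senescent than in quiescent footprints. Against quiescent cells, irradiated footprints had 7 members higher and 0 lower, beside 14.6% of all genes called. ENO1, PFKP and SLC2A1 were the others, with differences of 0.05, -0.02 and -0.03 on the log2 scale. Without quiescent Ribo-seq replicate 2, 4 of the 10 were called. Etoposide footprints had 7 higher and 1 lower (PFKP) than quiescent ones, beside 35.8%. In RNA, irradiated against quiescent cells gave 3 higher (HK2, GAPDH, PGK1) and 0 lower, beside 18.7%, and 1 to 2 members with 1 library left out. Etoposide against quiescent RNA gave 4 higher (SLC2A1, HK2, GAPDH, PGK1) and 2 lower (PFKP, ALDOA), beside 41.7%. The 2 senescent states differed in 2 members in RNA (SLC2A1, HK2; 22.6% of all genes) and in 3 in footprints (SLC2A1, HK2, PFKFB3; 22.5%).

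The RNA libraries held 20635503 to 57119841 gene counts and the Ribo-seq libraries 1936976 to 19996104. The 10 members together took 0.773 to 1.14% of the gene counts in RNA and 1.27 to 1.83% in footprints. Fibroblast markers were abundant in every library, at a summed 9189 to 14946 CPM in RNA (counts scaled to a common library size, with edgeR factors from the trimmed mean of M values), while leukocyte markers in RNA summed to at most 0.804 CPM and endothelial markers to at most 2.62 CPM. Epithelial markers reached 97.1 CPM in RNA, nearly all of it KRT19 in the thapsigargin libraries, and the lung epithelial gene NKX2-1 was at 0 in every library. Fibroblast markers did change with state. In thapsigargin RNA 7 of 10 were called lower, beside 12.8% of all genes. In thapsigargin footprints 9 of 10 were called lower, beside 23.6% (median log2 -2.20, summed 12680 to 13225 CPM against 35620 to 37589 CPM in cycling footprints). In irradiated footprints 6 of 10 were lower and 2 higher, beside 21.6% of all genes lower and 19% higher. What part the marker changes had in the members' changes was not tested. In bulk libraries, fewer cells of a type and less RNA per cell cannot be told apart. The thapsigargin RNA libraries had 1.35 to 1.40% unmapped reads against 27.8 to 40.6% in the others, and the labels place these cells in a medium described without antibiotics, so treatment and batch cannot be told apart. The thapsigargin Ribo-seq libraries were also counted on a list of 62703 genes, like the RNA libraries, and the other 12 Ribo-seq libraries on a list of 60664. Multimapped reads, which were left out of the counts, made up 65.2 and 66.9% in the thapsigargin Ribo-seq libraries. In the other 12 they made up 19.8 to 31.9%. What part this had in the members' footprint changes was not tested.

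SLC2A1, the transporter, parted the 2 senescent states more than any other member did. Its RNA was at 71.8 and 86.5 CPM in cycling cells, at 17.2, 39.9 and 34.0 CPM in quiescent cells, and at 37.0, 44.2 and 37.9 CPM in irradiated cells. In etoposide cells it stood at 101, 159 and 142 CPM, and after thapsigargin at 59.9 and 79.8 CPM. Both the quiescent and the irradiated libraries lay below every cycling library, and every etoposide library lay above them. The log2 fold change from cycling was -1.38 (SE 0.28, adjusted p = 0.004858) in quiescent and -0.99 (SE 0.28, adjusted p = 0.01282) in irradiated cells. Without cycling RNA replicate 2, neither was called (adjusted p = 0.05092 and 0.09815). In etoposide cells the difference was 0.76 (95% interval 0.15 to 1.37, adjusted p = 0.05251), just outside the threshold, and it passed under 5 of the alternatives, including DESeq2 (adjusted p = 0.02135).

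Footprints on SLC2A1 were likewise low in quiescent and irradiated cells, while after thapsigargin, unlike in RNA, every library exceeded the cycling ones. They stood at 160, 163 and 174 CPM in cycling cells, at 21.3, 67.5 and 90.5 CPM in quiescent cells and at 50.9, 60.8 and 64.9 CPM in irradiated cells. They reached 211, 315 and 246 CPM after etoposide and 248 and 289 CPM after thapsigargin. Neither of these differences from cycling cells was called (log2 0.63 and 0.70, adjusted p = 0.1742 and 0.1563). Both were called when only the compared groups were fitted (0.63 and 0.67, adjusted p = 0.0006562 and 0.006384), and under no other alternative. Quiescent and irradiated libraries overlapped each other and lay below all others, and quiescent replicate 1 was the lowest of all libraries. The change was -1.47 (SE 0.35, adjusted p = 0.008761) in quiescent and -1.50 (SE 0.36, adjusted p = 0.004688) in irradiated cells. The first was not called when only quiescent and cycling libraries were fitted (adjusted p = 0.07086). Irradiated cells held 0.228-fold the SLC2A1 footprints of etoposide cells (log2 -2.13, SE 0.37, adjusted p = 0.001473) and 0.296-fold the RNA (log2 -1.75, SE 0.26, adjusted p = 0.000454).

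**Figure D2:**
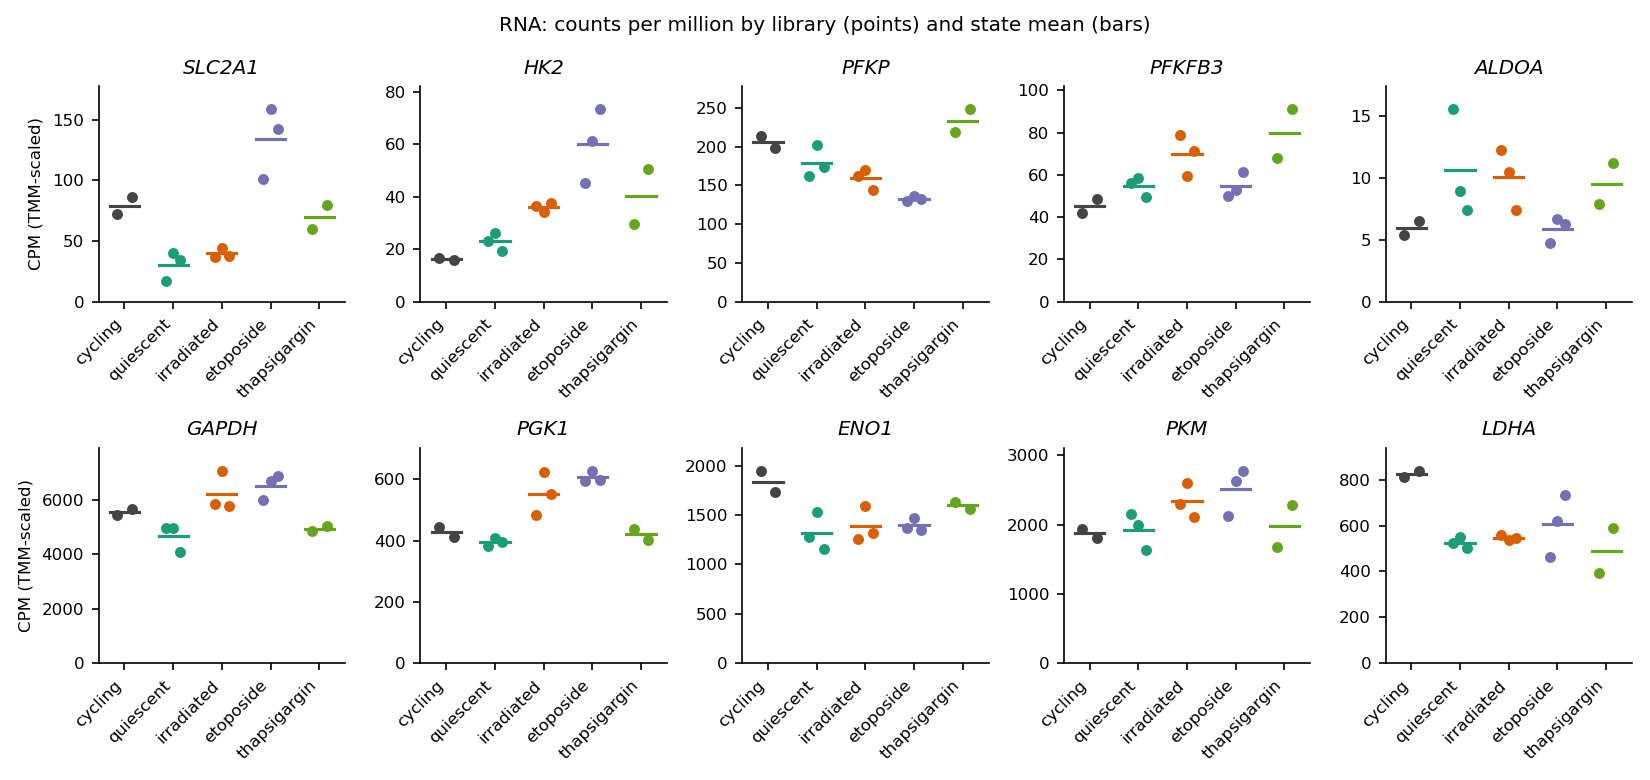
RNA level of each gene (y axis, CPM, from 0) by state (x axis); points are libraries and bars their mean. SLC2A1 was lowest in quiescent and irradiated cells and highest after etoposide, and HK2 was lowest in cycling cells.

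Other carriers of sugar and lactate were often lower in the same states, but not all of them. Of the 7 other SLC2 family genes tested in RNA, 5 were called lower in quiescent cells (SLC2A3, SLC2A6, SLC2A8, SLC2A10 and SLC2A12) and 3 in irradiated cells (SLC2A3, SLC2A6 and SLC2A10), beside 10.4% and 18.8% of all genes. SLC2A8 and SLC2A12 differed by 0.22 and -0.22 in irradiated RNA, neither called. SLC2A3, the neuronal-type glucose transporter, SLC2A6 and SLC2A10 had lower footprints in quiescent cells (log2 -1.64, -1.51 and -1.17) and in irradiated cells (-2.09, -1.36 and -1.53), all called. In etoposide footprints their differences were -0.55, 0.60 and -0.00, none called. In etoposide RNA SLC2A6 and SLC2A8 were called higher (0.56 and 0.96). SLC16A3, which exports lactate, fell in RNA by 1.80 in quiescent and by 1.48 in irradiated cells on the log2 scale and measured 0.41 in etoposide cells, which was not called. The related carrier gene SLC16A1 fell in all 3 states, by 1.16, by 1.85 and by 0.73. BSG, the chaperone that brings such lactate carriers to the membrane, fell by 0.87 and by 0.86, and measured 0.17 in etoposide cells, again not called.

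Lower values were also frequent among SLC genes outside the SLC25 group, a set looked at after these values were known and so described without a test. Among 173 SLC genes in the RNA fit, with SLC2A1 and the SLC25 genes of mitochondrial carriers left out, 72 were called lower and 1 higher in quiescent cells, with a median log2 change of -0.66 beside 0.02 over all genes. In irradiated cells 82 were lower and 8 higher, with a median of -0.65 beside 0.03. In etoposide cells 28 were lower and 36 higher, with a median of 0.03. These were 16.2 and 20.8% of them, beside 17.8% of all genes lower and 16.8% higher. In footprints the medians over 147 such genes were -1.11, -1.40 and -0.04 in quiescent, irradiated and etoposide cells, with 96, 106 and 21 called lower. Those counts were 65.3, 72.1 and 14.3% of them, beside 14.2, 21.6 and 17.1% of all genes. The 41 SLC25 genes, whose mRNAs encode carriers of the inner mitochondrial membrane, had RNA medians of 0.06, 0.29 and 0.19, with 1, 4 and 7 called lower. These were 2.44, 9.76 and 17.1% of them, beside 10.4, 18.8 and 17.8% of all genes.

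The fall of SLC2A1 in quiescent and irradiated cells therefore stood beside a fall of 41.6% and 47.4% of the other SLC genes in RNA, against 10.4% and 18.8% of all genes called lower. Between irradiated and etoposide cells, 48.6% of these other SLC genes were called lower in irradiated RNA and 60.5% in irradiated footprints. All genes had 12.9% and 13.7%, and the SLC medians were -0.68 and -1.375. Library by library the match was partial. In quiescent footprints, replicate 1 had the lowest SLC2A1 and the lowest median of the other SLC genes (log2 -1.84 from the cycling mean, against -0.91 and -0.64 in replicates 2 and 3). In irradiated footprints the SLC medians were alike in the 3 replicates (-1.34, -1.36 and -1.35) while SLC2A1 stood at -1.69, -1.44 and -1.35. After thapsigargin SLC2A1 footprints were above the cycling mean (0.58 and 0.80) and the SLC medians below it (-0.49 and -0.28). Footprints on the 10 fibroblast markers, which include 3 collagens, summed to 17914 CPM in quiescent replicate 1. In quiescent replicates 2 and 3 they summed to 31373 and 38158 CPM. They summed to 22924 to 25174 CPM in irradiated and 35620 to 37589 CPM in cycling libraries. What part a change common to membrane carriers had in the SLC2A1 result was not tested.

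**Figure D3:**
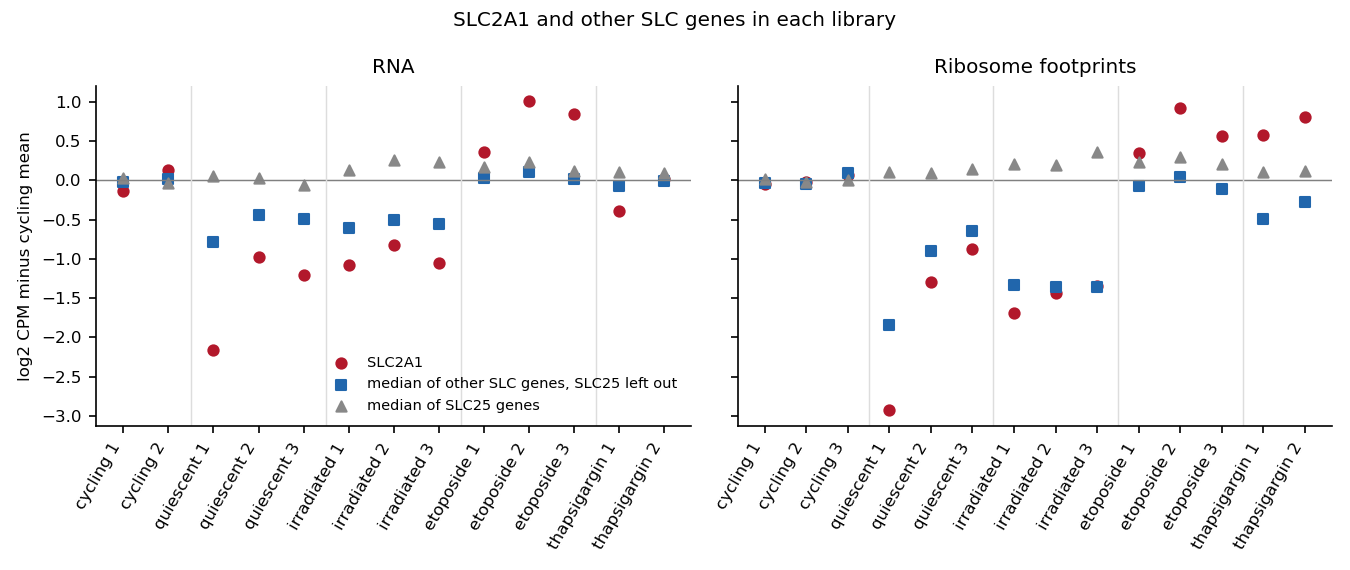
Log2 CPM minus the cycling mean (y axis) in each library (x axis) for SLC2A1 (red), the median of the other SLC genes without SLC25 (blue) and the median of SLC25 genes (grey). In quiescent and irradiated libraries the red and blue points lay below zero while the grey ones lay between -0.06 and 0.37; after etoposide the blue points were back near zero.

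HK2, the inducible hexokinase, was the member with the largest rise in both senescent states. Its RNA measured 16.7 and 15.9 CPM in cycling cells, 23.2, 26.2 and 19.4 CPM in quiescent cells, and 36.4, 34.1 and 37.5 CPM in irradiated cells. It measured 45.3, 61.3 and 73.3 CPM after etoposide, and 29.7 and 50.7 CPM after thapsigargin. Every library of the other states lay above both cycling libraries. The RNA rose 2.20-fold in irradiated cells (log2 1.14, SE 0.24, adjusted p = 0.002184), 3.68-fold after etoposide (log2 1.88, SE 0.24, adjusted p = 5.468e-05) and 2.47-fold after thapsigargin (log2 1.30, SE 0.25, adjusted p = 0.002508). In quiescent cells the difference was 0.49 (95% interval -0.01 to 1.00) and was not called.

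HK2 footprints were at 16.3, 12.4 and 14.5 CPM in cycling cells and 24.7, 25.4 and 29.0 CPM in quiescent cells. They were at 37.1, 50.2 and 41.4 CPM in irradiated cells, 61.4, 65.2 and 62.8 CPM after etoposide, and 49.8 and 69.3 CPM after thapsigargin. The order cycling, quiescent, irradiated, etoposide held with no overlap between neighbours, and thapsigargin overlapped irradiated and etoposide cells. The rise was 1.84-fold in quiescent (log2 0.88, SE 0.16, adjusted p = 0.00183), 2.96-fold in irradiated (log2 1.57, SE 0.17, adjusted p = 7.493e-06), 4.396-fold in etoposide (log2 2.14, SE 0.16, adjusted p = 2.538e-07) and 4.15-fold in thapsigargin cells (log2 2.05, SE 0.19, adjusted p = 2.307e-06). HK2 was higher after etoposide than after irradiation, by 0.74 in RNA and 0.57 in footprints on the log2 scale (adjusted p = 0.018 and 0.01941). Neither of these calls held without irradiated replicate 1 of its own type (adjusted p = 0.05905 and 0.09374). The RNA call was also lost without irradiated replicate 2 or without etoposide replicate 2 or 3, and the footprint call without irradiated replicate 3 (adjusted p = 0.06079, 0.05793, 0.08343 and 0.06743).

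At the phosphofructokinase step, the enzyme PFKP and its activator's gene PFKFB3 went opposite ways in irradiated RNA. PFKP RNA stood at 214 and 198 CPM in cycling cells, 163, 170 and 144 CPM in irradiated cells and 130, 137 and 132 CPM in etoposide cells. Cycling libraries lay above both senescent states, and the 3 etoposide libraries below those of irradiated cells. The log2 change was -0.63 after etoposide (SE 0.12, adjusted p = 0.001114), and footprints fell by 0.66 there (SE 0.14, adjusted p = 0.002181). In irradiated cells the RNA change was -0.37 (SE 0.12, adjusted p = 0.02594), a call lost without either cycling library or without irradiated replicate 1 or 3 (adjusted p = 0.1811, 0.06859, 0.05419 and 0.1032). In quiescent cells PFKP differed by -0.20 in RNA and -0.25 in footprints, neither called. In thapsigargin cells it differed by 0.18 in RNA (95% interval -0.10 to 0.46) and 0.06 in footprints (95% interval -0.27 to 0.40), neither called. The related subunit genes PFKL and PFKM were called higher in irradiated RNA, at 0.64 and 0.45.

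PFKFB3 footprints were lowest in cycling and highest in irradiated cells. They stood at 63.5, 60.98 and 55.6 CPM in cycling cells, at 86.0, 86.7 and 93.6 CPM in quiescent cells and at 120, 119 and 110 CPM in irradiated cells. They stood at 87.7, 72.8 and 80.9 CPM after etoposide and at 84.3 and 74.0 CPM after thapsigargin. All libraries of the other states exceeded the cycling ones, irradiated libraries were the highest, and etoposide libraries overlapped both quiescent and thapsigargin ones. The footprint change was 0.56 in quiescent, 0.96 in irradiated, 0.42 in etoposide and 0.40 in thapsigargin cells on the log2 scale (SE 0.10 to 0.12; adjusted p = 0.001595, 8.207e-06, 0.005173 and 0.01519). The thapsigargin call was lost without its replicate 1, without the filter, and with the compared groups alone (adjusted p = 0.1603, 0.1015 and 0.1099). PFKFB3 was the 1 member whose footprints were called higher after irradiation than after etoposide, by 0.53 (SE 0.10, adjusted p = 0.002453). In RNA it rose by 0.63 in irradiated and 0.82 in thapsigargin cells (adjusted p = 0.009297 and 0.004971), and neither was called without cycling RNA replicate 1 (adjusted p = 0.1106 and 0.06043). In quiescent and etoposide RNA its difference was 0.28 in each, not called.

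The other genes that set fructose-2,6-bisphosphate include PFKFB2, a second synthase, and TIGAR, a p53 target that breaks it down. PFKFB2 RNA was called higher in quiescent, irradiated, etoposide and thapsigargin cells (log2 0.56, 1.28, 0.92 and 0.78), and so was TIGAR (1.00, 1.71, 1.78 and 0.74). In thapsigargin cells TIGAR footprints rose by 2.55, more than its RNA (difference 1.76, called in the test of that difference), and PFKFB4 footprints fell by 1.61.

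ALDOA, a gene of abundant enzyme in most cells, was listed here at very low counts, from 126 to 638 in RNA and from 7 to 190 in footprints. These counts leave out reads that overlap several annotated genes or map to several places, and its named pseudogenes, which are near copies, held 14.9 to 60.0% as many footprint counts as the gene itself. Its values are therefore uncertain, and what part the counting had was not tested. On the listed counts, ALDOA footprints were 8.22, 6.995 and 7.73 CPM in cycling cells, 12.1, 11.8 and 27.2 CPM in irradiated cells and 13.3, 17.97 and 32.8 CPM after etoposide. The change was 1.15 in irradiated cells (SE 0.38, adjusted p = 0.02698) and 0.64 without irradiated replicate 3 (adjusted p = 0.2105); leaving out any of the 3 cycling libraries also ended the call (adjusted p from 0.06104 to 0.07967). After etoposide it was 1.48 (SE 0.37, adjusted p = 0.006651) and 1.03 without replicate 3 (adjusted p = 0.05122). In RNA its differences of 0.76 in irradiated and -0.01 in etoposide cells were not called. Without ALDOA, 5 of the 9 other members were higher in the footprints of each senescent state.

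GAPDH, PGK1 and PKM rose together in senescent footprints. GAPDH, which makes NADH and is often used as a reference gene, was at 1721, 1593 and 1941 CPM in cycling footprints, 2569, 2806 and 3066 CPM in irradiated ones and 2824, 3208 and 3331 CPM after etoposide. Every senescent library lay above every cycling one. The rise was 0.68 (SE 0.14, adjusted p = 0.001493) and 0.83 (SE 0.14, adjusted p = 0.0003842) on the log2 scale. In RNA, GAPDH was at 5420 and 5655 CPM in cycling, 5847, 7061 and 5750 CPM in irradiated and 5984, 6682 and 6850 CPM in etoposide cells. Both senescent states lay above cycling cells and overlapped each other, but the RNA differences from cycling of 0.17 (95% interval -0.11 to 0.45) and 0.23 (95% interval -0.05 to 0.51) were not called. In quiescent cells GAPDH differed by -0.25 in RNA and 0.08 in footprints, neither called. The 65 named GAPDH pseudogenes held 1.79 to 3.88% as many footprint counts as the gene.

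PGK1 is the first ATP-yielding enzyme. Its footprints were at 776, 787 and 758 CPM in cycling and 790, 774 and 762 CPM in quiescent cells, which overlapped. They were at 1310, 1368 and 1259 CPM in irradiated and 1110, 1159 and 1181 CPM in etoposide cells, far above both. The difference from cycling was 0.00 in quiescent cells (95% interval -0.15 to 0.15), 0.76 in irradiated cells (SE 0.07, adjusted p = 2.472e-06) and 0.57 in etoposide cells (SE 0.07, adjusted p = 2.976e-05). PGK1 RNA rose by 0.37 and 0.51 in the senescent states (adjusted p = 0.0236 and 0.004334). The irradiated RNA call was lost without either cycling library or without irradiated replicate 2 or 3 (adjusted p = 0.07512, 0.168, 0.09063 and 0.0563), and the etoposide one without cycling replicate 2 (adjusted p = 0.05939).

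PKM, the pyruvate kinase gene whose splice forms these gene counts do not separate, followed with a smaller rise. Its footprints were at 6829, 5623 and 5442 CPM in cycling, 8774, 9081 and 8497 CPM in irradiated and 8498, 7781 and 7680 CPM in etoposide cells. Quiescent libraries, at 6071, 6280 and 5709 CPM, overlapped the cycling ones, and both senescent states lay above. The change was 0.56 in irradiated (SE 0.09, adjusted p = 0.0002707) and 0.42 in etoposide cells (SE 0.09, adjusted p = 0.002455). RNA differed by 0.32 and 0.42, which was not called (adjusted p = 0.1599 and 0.06926).

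ENO1 and LDHA went the other way. ENO1, which makes phosphoenolpyruvate, had footprints at 3508, 3305 and 3392 CPM in cycling cells. They stood at 2462, 2814 and 2622 CPM in quiescent, 2638, 2724 and 2814 CPM in irradiated and 2382, 2476 and 2395 CPM in etoposide cells. All 9 of these libraries lay below the 3 cycling ones. Footprints fell by 0.37, 0.32 and 0.49 on the log2 scale (SE 0.08 in each; adjusted p = 0.00395, 0.004394 and 0.0002166). The RNA fell by 0.48, 0.40 and 0.40 (adjusted p = 0.03262, 0.03583 and 0.03994), calls that were all lost without either cycling RNA library (adjusted p from 0.06662 to 0.2681) and with a replicate block (adjusted p from 0.05462 to 0.0695).

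LDHA, which makes lactate, was lowest after thapsigargin and in quiescence. Its footprints were at 1653, 1656 and 1533 CPM in cycling cells, 838, 958 and 790 CPM in quiescent cells, 1116, 1191 and 1132 CPM in irradiated cells and 1048, 1167 and 1197 CPM in etoposide cells. They were at 753 and 814 CPM after thapsigargin. Cycling libraries lay above all others, the senescent states overlapped each other and lay above the quiescent one, and quiescent and thapsigargin cells overlapped. Against cycling cells, footprints fell by 0.90 in quiescent (SE 0.09, adjusted p = 7.461e-05), by 0.49 in irradiated (SE 0.09, adjusted p = 0.0005355), by 0.50 in etoposide (SE 0.09, adjusted p = 0.0004931) and by 1.04 in thapsigargin cells (SE 0.10, adjusted p = 4.212e-06). Irradiated and etoposide footprints exceeded quiescent ones by 0.41 and 0.40 (adjusted p = 0.005764 and 0.002788).

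LDHA RNA was at 811 and 840 CPM in cycling, 525, 549 and 500 CPM in quiescent, 558, 537 and 544 CPM in irradiated, 463, 619 and 733 CPM in etoposide, and 392 and 588 CPM in thapsigargin libraries. Every library of the other states lay below both cycling ones. The RNA changes of -0.65, -0.59 and -0.75 in quiescent, irradiated and thapsigargin cells were called (adjusted p = 0.02541, 0.01979 and 0.01473), and all were lost without either cycling RNA library (adjusted p from 0.05981 to 0.1313). In etoposide cells the difference of -0.45 was not called (adjusted p = 0.06934). LDHB, the other main lactate dehydrogenase subunit, differed from cycling RNA by -0.06 and -0.10 in irradiated and etoposide cells, neither called.

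**Figure D4:**
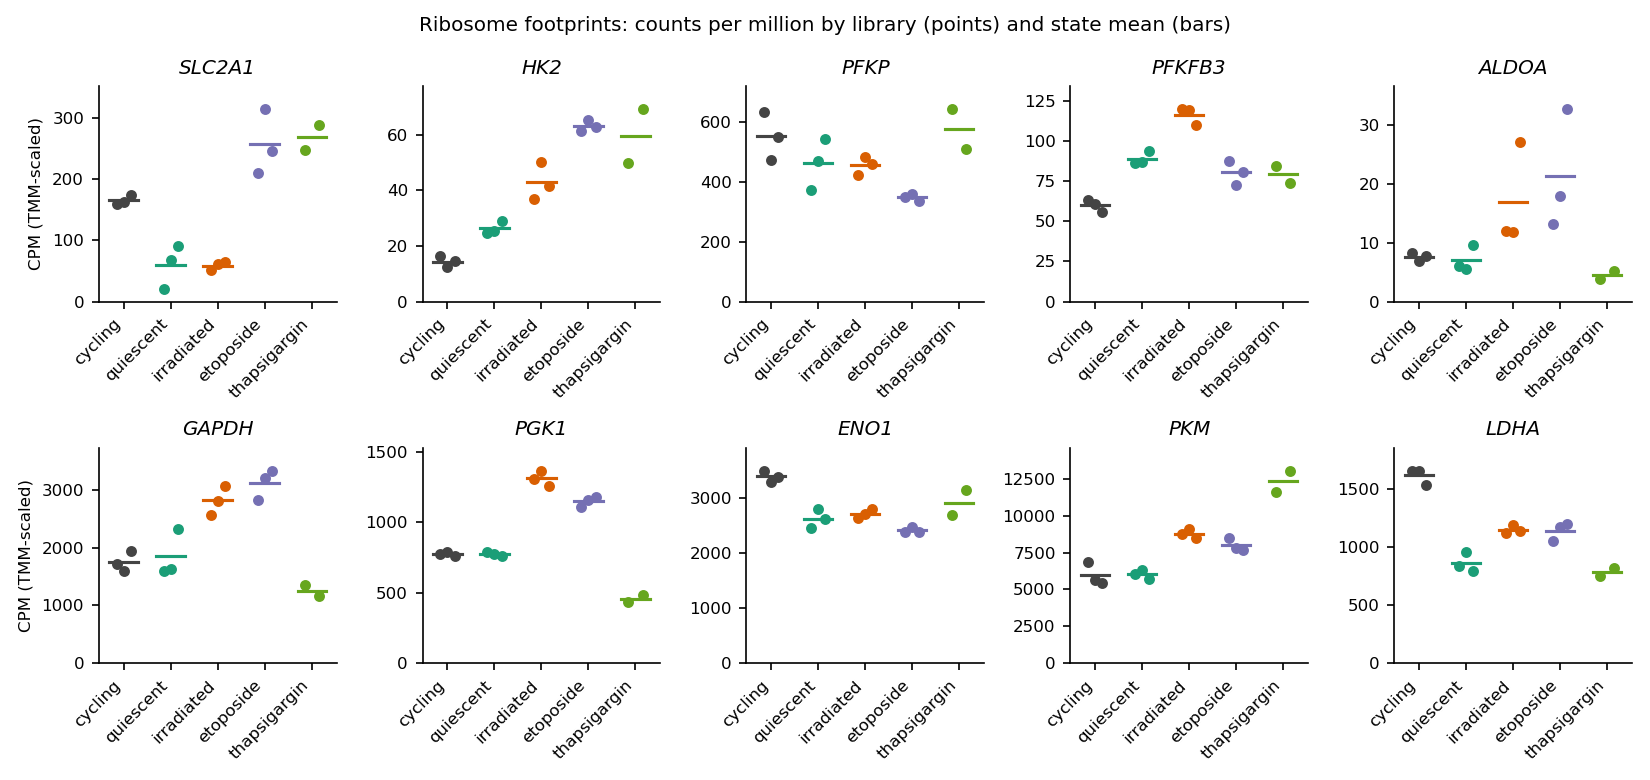
Footprint level of each gene (y axis, CPM, from 0) by state (x axis); points are libraries and bars their mean. GAPDH, PGK1 and PKM were higher in both senescent states than in cycling cells, and ENO1 and LDHA lower; after thapsigargin PKM was highest and PGK1 lowest.

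Footprints and RNA were then compared in 1 model with an interaction term, which asks whether footprints changed more or less than RNA did (a change in translation efficiency). The model did not pair RNA and footprint libraries, though lysates were split between the types. Counts with a replicate block are given at the end. No member was called in quiescent, irradiated or etoposide cells by edgeR, where 0.00854, 0.0512 and 0.0683% of 11715 genes were called. In irradiated cells the count over all genes depended on the fit, with 6 genes called here and up to 756 under the alternatives. DESeq2 also called 0 members in each of these states. At an unadjusted edgeR p under 0.05 there were 1 in quiescent (GAPDH), 3 in irradiated (PFKFB3, GAPDH, PGK1) and 2 in etoposide cells (ALDOA, GAPDH), all higher. The share of all genes at that unadjusted threshold was not counted, so these numbers have no background beside them. For GAPDH the differences were 0.60 in irradiated cells (95% interval 0.21 to 0.99, adjusted p = 0.4535) and 0.55 in etoposide cells (0.15 to 0.94, adjusted p = 0.8418). That of PGK1 in irradiated cells was 0.48 (95% interval 0.18 to 0.77, adjusted p = 0.3902). Footprint calls without RNA calls for GAPDH and PKM are thus not shown to be changes in translation.

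After thapsigargin, 1 member was called higher and 1 lower in translation efficiency, where 20.7% of all genes were called. PGK1 RNA was at 437 and 403 CPM against 443 and 410 CPM in cycling cells, a difference of -0.02. Its footprints were at 432 and 484 CPM against 758 to 787 CPM, a fall of 0.76 (SE 0.08, adjusted p = 1.163e-05). The footprint change minus the RNA change was -0.79 (SE 0.16, adjusted p = 0.001535), beside a median of -0.15 over all genes. PKM went the other way: its RNA was at 1670 and 2285 CPM around the 1937 and 1807 CPM of cycling cells, and its footprints at 11613 and 13056 CPM lay above all others. PKM footprints rose 2.07-fold (log2 1.05, SE 0.10, adjusted p = 3.444e-06), and the difference from RNA was 0.92 (SE 0.22, adjusted p = 0.004782). The ratio of mean footprint to mean RNA CPM went from 3.19 to 6.24 for PKM and from 1.81 to 1.09 for PGK1. The RNA and footprint libraries of cycling cells were counted on different gene lists, and what part that had was not tested. The part of the 65.2 and 66.9% multimapped reads in the thapsigargin footprint libraries was likewise not tested.

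**Figure D5:**
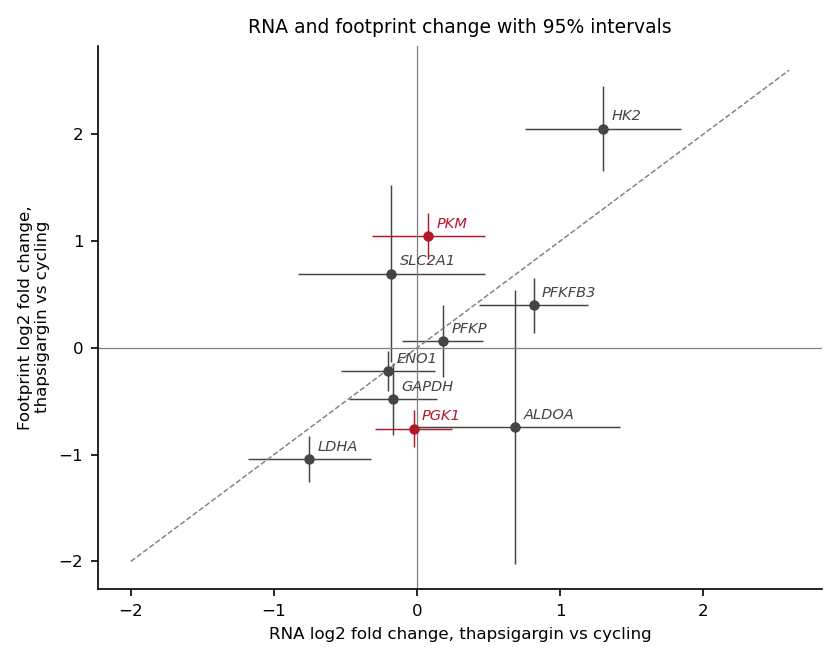
Footprint change (y axis) against RNA change (x axis) after thapsigargin, log2 against cycling cells, with 95% intervals; the dashed line marks equal change. PKM and PGK1, in red, were called in the test of the difference; PKM lay above the line and PGK1 below it.

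The efficiency differences of the other members were not called after thapsigargin. That of ALDOA was -1.48 (95% interval -2.93 to -0.03, adjusted p = 0.1381), on 7 and 10 footprint counts. PFKFB3 had -0.47, GAPDH -0.37, LDHA -0.34, PFKP -0.17 and ENO1 -0.07. ENO1 footprints, at 2696 and 3154 CPM, differed by -0.22 from cycling ones (adjusted p = 0.05311), just outside the threshold, and passed under 5 of the alternatives, including DESeq2 (adjusted p = 0.01308). ALDOA differed by 0.69 in RNA and -0.74 in footprints, neither called. GAPDH footprints, at 1348 and 1161 CPM, fell by 0.48 (adjusted p = 0.02342), and the call was lost without cycling replicate 3 or thapsigargin replicate 2 (adjusted p = 0.07732 and 0.1329). SLC2A1 had an efficiency difference of 0.82 (95% interval -0.21 to 1.86, adjusted p = 0.2554), which passed with a replicate block (0.87, adjusted p = 0.02947). HK2 had 0.70 (95% interval 0.04 to 1.37, adjusted p = 0.122). Among the further isozymes, LDHB footprints fell by 1.74 while its RNA differed by 0.64, not called, and the difference of -2.44 was called. BPGM, which makes 2,3-bisphosphoglycerate, had a called difference of 0.68. MPC2 and PDK2, for pyruvate entry into mitochondria and its restraint, had called differences of 1.04 and -1.98.

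The wider pathway was described by lists of fixed membership. Of 14 further isozymes and enzymes of glycolysis tested in RNA, 5 were called higher and 1 lower in irradiated cells (HKDC1 2.74, BPGM 0.75 and ALDOC 0.74 had the largest rises, with only 5 HKDC1 counts over the cycling libraries, and ADPGK was lower at -1.28), and 3 higher and 0 lower in etoposide cells. Over all genes 16.2% were higher and 18.8% lower in irradiated RNA, and 16.8% and 17.8% in etoposide RNA. The list's median was 0.39 in irradiated cells beside 0.03 over all genes. In footprints 7 of 12 were higher and 1 lower in irradiated cells, and 6 higher and 0 lower in etoposide cells, beside 40.5% and 33.9% of all genes called. In quiescent RNA 0 were higher and 1 lower, and in thapsigargin RNA 1 was higher (HK1, 0.67) and 1 lower (PGAM1, fell by 0.998).

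Genes of the pentose phosphate pathway, which branches from glucose-6-phosphate and yields NADPH, were also tested. PGD (1.08), TALDO1 (1.06) and PGLS (0.70) were called higher in irradiated footprints, while RPE (0.37), RPIA (0.07) and TKT (0.02) were not called. In thapsigargin footprints RPE (-0.73), PGD (-0.70), TKT (-0.49) and TALDO1 (-0.40) were called lower, and RPIA (-0.73) and PGLS (0.24) were not called. TALDO1 RNA was called higher in irradiated and etoposide cells (0.84 and 0.76) and lower after thapsigargin (-0.56).

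In the list of pyruvate and lactate handling, PDK4, a kinase that shuts pyruvate dehydrogenase, stood out. It had 0 counts in both cycling RNA libraries and 0.64 ± 0.16 CPM (SD, n = 3) in irradiated and 3.92 ± 2.58 CPM (SD, n = 3) in etoposide cells. Set against a floor of 3 counts over the cycling libraries, that is at least 10.7-fold and at least 65.2-fold higher. These are low levels, and the fold against 0 depends on the floor. MPC2, a subunit of the mitochondrial pyruvate carrier, rose by 0.73 and 1.05 in RNA. The list had 4 of 17 higher and 4 lower in irradiated RNA, beside 34.9% of all genes called there, and the 4 lower were SLC16A1, SLC16A3, SLC16A7 and BSG, all membrane proteins that carry or escort lactate.

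Among 13 regulators of glycolytic genes, 6 were higher and 1 lower in irradiated RNA, where 16.2% of all genes were higher and 18.8% lower. TXNIP and ARRDC4, arrestin family genes that restrain glucose uptake, rose by 2.59 and 3.15 in irradiated cells and by 1.78 and 2.97 after etoposide, and fell by 2.10 and 1.60 after thapsigargin. EPAS1, which encodes HIF-2α, rose by 1.35, 2.45 and 2.06 in quiescent, irradiated and etoposide cells. HIF1A RNA was called in none of the 4 states compared with cycling cells (log2 0.21, 0.05, 0.38 and -0.35). MYC RNA fell by 0.37 after etoposide and rose by 0.68 after thapsigargin. Of 15 hypoxia targets outside glycolysis, 5 were higher and 4 lower in irradiated RNA, with BNIP3L (1.04) and MXI1 (1.33) among those higher and CA12 (-2.23) among those lower, beside the same shares of all genes. Of 3 gluconeogenesis genes tested, PCK2 RNA fell by 1.02 after etoposide, and G6PC3, a membrane protein of the endoplasmic reticulum, had footprints that fell by 1.56 in quiescent and by 1.23 in irradiated cells.

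Across the 13 RNA libraries, which share the 5 states, the highest correlations among the members were between GAPDH and PGK1 and between GAPDH and PKM. The Pearson correlation of log2 CPM was 0.87 and 0.83 for these, and 0.77 between HK2 and PKM. ENO1 had 0.17 with GAPDH, -0.07 with PGK1 and -0.10 with PKM. PFKP ran against PGK1 (-0.73), and LDHA had 0.00 with PGK1 although both belong to 1 pathway. By the mean of the 10 members' centred log2 CPM, the 5 genes most like the group were NPDC1 (0.95), REEP2 (0.92), NPTXR (0.91), PDRG1 (0.91) and TMEM120A (0.91). These values describe 13 libraries that share their states and carry no test.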

How the data were processed

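RNA-seq and Ribo-seq of IMR90 cells were analysed from 27 libraries in 5 states. The authors deposited 1 table of raw counts for each library, 1 line per gene, in the layout of STAR. STAR 2.7.10b, hg38, DESeq2 1.36.0 and bcl2fastq are named in the submitters' processing notes; the gene annotation and trimming are not given in the sources used here. Per the labels' protocols, lysates in polysome buffer were split between RNA-seq and RNase I digestion; the labels give differing digestion times. One label calls every thapsigargin library protected fragments, so library types were taken from titles.

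Reverse-strand counts were used for RNA and forward-strand counts for footprints, over the 60534 identifiers common to both gene lists; 60461 had a symbol. Reads in no gene's count (unmapped, multimapped or ambiguous) were left out of library sizes; 1.35 to 40.6% of RNA reads were unmapped. Protein-coding genes were filtered by edgeR's default, scaled by TMM and fitted with its robust quasi-likelihood F test (edgeR 4.0.16, R 4.3.3), all 5 states in 1 fit for RNA, footprints, and both with an interaction. P-values were Benjamini-Hochberg adjusted over all genes tested. The biological coefficient of variation was 0.159 in RNA and 0.168 in footprints. The scripts were tested on simulated data. CPM are TMM-scaled; correlations used log2(CPM + 0.5).

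All 10 members entered every comparison and every count of members; from each further list up to 3 called genes per direction with the largest change could be named, and other named genes were chosen after their values were seen. The pentose phosphate list is described only in part. The members and lists were chosen with earlier results of these data known. Alternatives were RLE scaling, no filter, DESeq2 1.42.0, the compared groups alone, a replicate block and each library left out; leaving out ALDOA and the SLC gene description were added after seeing the data. For quiescent against cycling footprints, same-numbered libraries deviated together (correlations 0.17 to 0.29 over 3 pairs), a pairing taken from the data and not stated by the labels; the block changed no member's call there.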

Additional observations from a re-analysis of the deposited data

Results flagged for a closer look

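Irradiation and etoposide both gave senescent cells, and for 3 members their effects differed in a direct edgeR test of irradiated against etoposide libraries (3 against 3). In that test 22.6% of all genes were called in RNA and 22.5% in footprints. For SLC2A1 the effect of irradiation minus that of etoposide was -1.75 in RNA (adjusted p = 0.000454) and -2.13 in footprints (adjusted p = 0.001473), with every irradiated library below every etoposide one. For HK2 it was -0.74 in RNA (adjusted p = 0.018) and -0.57 in footprints (adjusted p = 0.01941), where both effects were rises. For PFKFB3 it was 0.53 in footprints (adjusted p = 0.002453). The gap of SLC2A1 was shared by many other SLC genes outside the SLC25 group, of which 48.6% were lower in RNA and 60.5% in footprints. Of all genes 12.9% and 13.7% were lower. After thapsigargin, the effect on footprints differed from that on RNA by -0.79 for PGK1 (adjusted p = 0.001535) and by 0.92 for PKM (adjusted p = 0.004782). Batch and treatment cannot be told apart there, and 20.7% of all genes were called. Groups of 2 or 3 libraries are too small for a test of single outlying libraries, and none was run.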

How the results depend on the processing

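No member changed the sign of a called difference under any alternative. Of the alternative values for single members and comparisons, 1971 kept their side of the threshold, 90 fell out of it and 39 entered it; 73 of the 90 came from leaving out 1 library. Members called moved with 1 library left out: in RNA from 7 to 2 to 5 in irradiated against cycling, from 4 to 2 to 5 in etoposide against cycling, from 3 to 0 to 3 in quiescent against cycling, from 3 to 1 to 3 in thapsigargin against cycling, from 3 to 1 to 2 in irradiated against quiescent and from 2 to 1 to 3 in irradiated against etoposide. In footprints, irradiated against quiescent went from 7 to 4 to 7. DESeq2 called 5 members in irradiated against etoposide footprints instead of 3, and fitting the compared groups alone called 1 member (SLC2A1, -0.57) in irradiated translation efficiency instead of 0; the cause was not tested. Leaving out ALDOA moved no total of members called by over 1.5 times; members called lower in etoposide against quiescent RNA went from 2 to 1.

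Counts over all genes moved too. Genes called in quiescent RNA went from 2068 to between 707 and 2617 over the alternatives, in thapsigargin RNA from 3259 to between 1512 and 3780, in etoposide RNA from 4593 to between 2612 and 6073, in irradiated RNA from 4643 to between 2778 and 6765, in etoposide footprints from 3986 to between 3012 and 6020, in quiescent footprints from 2631 to between 1558 and 3340, in irradiated against etoposide RNA from 3000 to between 1841 and 4384 and footprints from 2653 to between 1500 and 4134, and in irradiated against quiescent RNA from 2488 to between 1440 and 3072 and footprints from 1713 to between 939 and 2389. In translation efficiency the counts went from 1 to between 0 and 6, from 6 to between 1 and 756, from 8 to between 5 and 40 and from 2430 to between 1053 and 3769 in quiescent, irradiated, etoposide and thapsigargin cells. RLE scaling moved the median of all genes by at most 0.09.

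With the replicate block, members called became 6 in irradiated RNA, 2 in quiescent RNA, 5 in etoposide RNA, 7 in thapsigargin footprints and 3 in thapsigargin translation efficiency; the other counts of members were as without it. Same-numbered libraries were said to deviate together where every pair had a correlation above 0.1. Among comparisons between states with 3 pairs, only quiescent against cycling footprints met this, so the numbers are not treated as pairs elsewhere. The lowest correlation was -0.29, in etoposide against quiescent RNA. Irradiated against quiescent footprints came close, at 0.09 to 0.17. Between RNA and footprints of 1 state, same-numbered libraries deviated together in every pair of etoposide (0.14 to 0.42) and cycling cells (0.15 and 0.20) but not of the other states (lowest -0.02); with the block of state and number, 0, 3, 13 and 2065 genes were called in quiescent, irradiated, etoposide and thapsigargin translation efficiency. Depth limits the thapsigargin footprints (1936976 gene counts in the shallower library) and ALDOA (7 and 10 counts there).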
